A study of Homo sapiens with 6 samples.

Results

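The p38 MAP kinases are stress- and cytokine-activated protein kinases, and 10 genes of their module are described here: the activating kinases MAP2K3, MAP2K4 and MAP2K6, the p38 kinases MAPK11, MAPK13 and MAPK14, and the dual-specificity phosphatases DUSP1, DUSP2, DUSP4 and DUSP10. They are 10 of the 23459 genes in the count table, found by matching each Entrez identifier to its symbol, and all 10 were present. The genes were chosen by their place in the pathway with fold changes and calls from these same libraries already known. Their differences between the groups are therefore a description, given without p-values, and are no independent support for anything.

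The cells were Raji, a long-established human B cell line from a Burkitt's lymphoma, and bulk RNA was sequenced, so fewer cells expressing a gene and less RNA per cell cannot be told apart. The IRF4-overexpressing group (3 libraries) received lentivirus carrying human IRF4 cDNA, and the control group (3 libraries) received the empty vector. Infection lasted 5 days in both groups, and puromycin (3 µg/ml) was then applied for 7 days to keep cells with an integrated vector. IRF4 drives gene programmes of B cell activation and plasma cell fate, and the comparison asks how raising it changes expression in a lymphoma line. Whether the replicates came from separate infections is not given in the sources used here, and p-values for other genes thus measure the spread between libraries alone, possibly technical.

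As background, p38 kinases sit at the end of a 3-tier relay. MAP3K enzymes phosphorylate the MAP2K activators, and these in turn phosphorylate a threonine and a tyrosine in the activation loop of p38. DUSP phosphatases remove those phosphates, and several of them are themselves induced by the pathway, which makes them feedback brakes. In B cells the module is engaged by antigen receptor, CD40 and Toll-like receptor signals. Transcript levels do not report the phosphorylation state, which was not measured.

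The coding sequences below show the switch that defines each role, with the codons of that motif in capitals and the 9 coding bases on each side in lower case. They were read from GENCODE 29 transcripts (GRCh38), and DUSP4 was not printed. In the activators the capitals encode the activation-loop motif SXAKT, which MAP3K enzymes phosphorylate.
MAP2K3: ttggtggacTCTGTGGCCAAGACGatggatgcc
MAP2K6: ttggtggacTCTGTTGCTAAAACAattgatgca
MAP2K4: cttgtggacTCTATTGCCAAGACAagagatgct
In the p38 kinases they encode TGY, the threonine-glycine-tyrosine motif that the activators phosphorylate. MAPK12, the remaining p38 kinase and not among the 10 genes, is shown with them.
MAPK14: gatgaaatgACAGGCTACgtggccact
MAPK11: gaggagatgACCGGCTATgtggccacg
MAPK13: gccgagatgACTGGCTACgtggtgacc
MAPK12: agtgagatgACTGGGTACgtggtgacc
In the phosphatases they encode the catalytic loop HCXXGXXR, whose cysteine attacks the phosphate.
DUSP1: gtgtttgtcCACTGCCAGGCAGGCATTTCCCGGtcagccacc
DUSP2: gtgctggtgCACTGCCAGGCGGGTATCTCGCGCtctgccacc
DUSP10: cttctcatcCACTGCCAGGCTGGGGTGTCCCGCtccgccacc

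The motif lay at residues 180 to 182 of MAPK14, MAPK11 and MAPK13 and at residues 183 to 185 of MAPK12. Over the 33-base window MAP2K3 and MAP2K6 matched at 27 positions, and each of them matched MAP2K4 at 25. Over the 27-base window the pairs of p38 kinases matched at 18 to 23 positions. DUSP1 and DUSP2 matched at 33 of 42 positions, and DUSP10 matched each of them at 31. Within each role the genes share the encoded motif, while their bases differ both in and around it. Of all 50-base stretches in 1 annotated transcript per gene, 0% in MAPK11, MAPK12, MAPK13, MAPK14, DUSP1, DUSP2, DUSP4 and DUSP10 occurred in a transcript of another gene. The share was 7.28% in MAP2K4, shared with its pseudogene MAP2K4P1, 3.51% in MAP2K3 and 0.562% in MAP2K6. How reads from such stretches were assigned is not given in the sources used here, so the values of MAP2K4 and MAP2K3 carry that uncertainty.

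The libraries held 27681979 to 46210702 counts each. IRF4 itself was at 150, 120 and 125 CPM (counts scaled to library size with TMM factors) in IRF4-overexpressing replicates 1, 2 and 3, against 1.02, 1.38 and 1.37 CPM in control replicates 1, 2 and 3. Of 6 B cell markers all were detected, and their summed level was 2108 to 2266 CPM in IRF4-overexpressing and 2112 to 2270 CPM in control libraries. These sums hide members that differ in sign, with 4 of 6 below 0 and a median log2 fold change of -0.29. MS4A1 was at 0.26 with no overlap between the groups, while CD79A was at -0.36, CD22 at -0.51 and PAX5 at -0.52 with overlap, and edgeR's adjusted p was 0.174 for MS4A1 and 0.271 to 0.862 for the others. Of 16 markers of T, myeloid, epithelial and mesenchymal cells, 4 had no count in any library. PDGFRA was at 43.8 to 54.4 CPM in IRF4-overexpressing and 45.1 to 51.3 CPM in control libraries, and the other 15 markers summed to 5.67 to 10.6 CPM in IRF4-overexpressing and 2.74 to 3.91 CPM in control libraries, and their part in the results below was not tested. Within the groups the libraries varied along a shared axis, the first principal component of log2 CPM about the group means, which held 83.4% of that variance. Control replicate 1 fell together there with IRF4-overexpressing replicates 2 and 3, and the opposite side held IRF4-overexpressing replicate 1 with control replicates 2 and 3. Each member below is therefore also given within each side.

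Of the 10 genes, 8 had enough counts for the test. Among these DUSP10 was higher and MAP2K6 lower with IRF4 raised, and the other 6 did not pass edgeR's quasi-likelihood test at an adjusted p of 0.05 over the 12079 genes tested. That is 1 of 8 higher, against 2.98% of all genes tested, and 1 of 8 lower, against 0.182%. In the CPM values 1 of the 8 lay higher with no overlap between the groups (13.5% of all genes tested) and 2 lay lower with no overlap (11.9%). The median log2 fold change was -0.26 over the 8 and 0.0073 over all genes tested. Because the members were chosen with this comparison known, nothing is read from these shares.

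**Figure D1:**
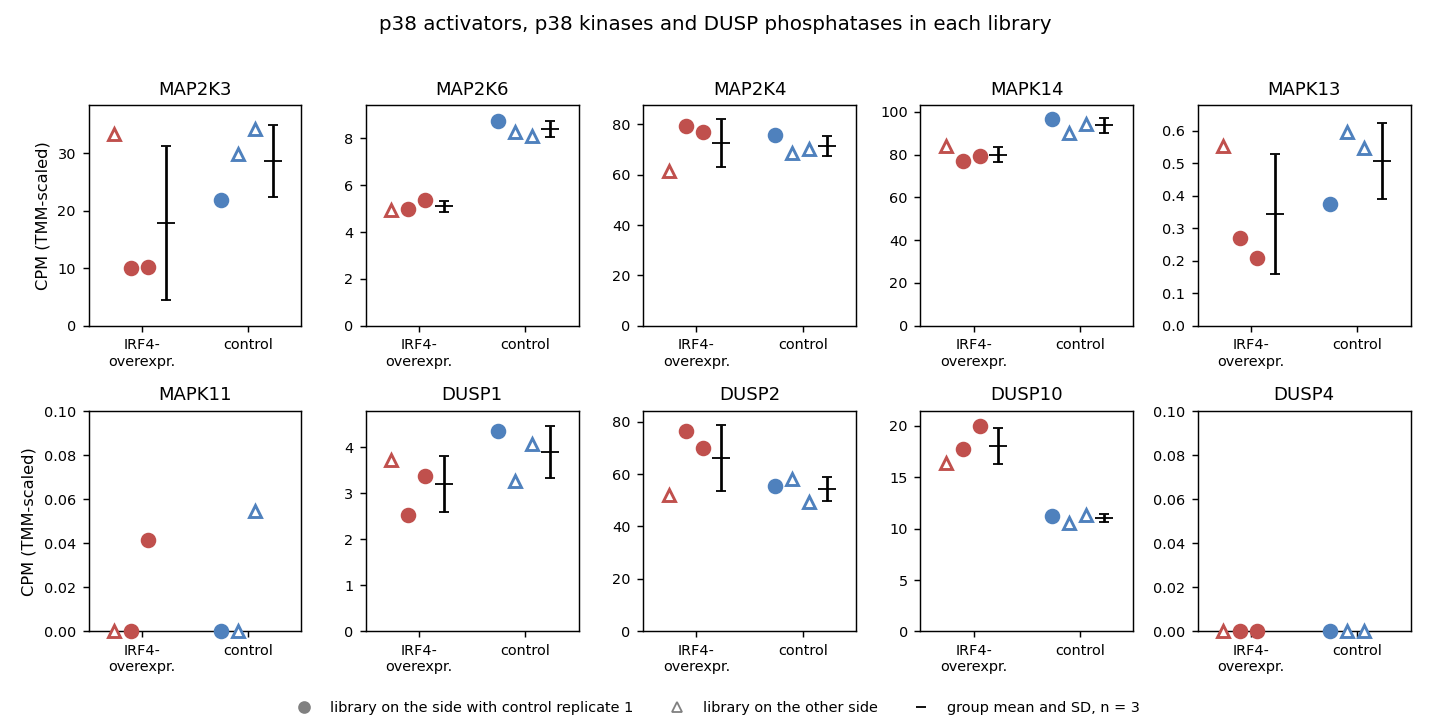
Level of each of the 10 genes in each library, in TMM-scaled CPM on a linear axis from 0, with IRF4-overexpressing libraries on the left and control libraries on the right of each panel. Circles are libraries on the same side of the library axis as control replicate 1, open triangles are those on the other side, and bars give mean and SD (n = 3) for the 8 genes tested. The groups are apart in MAP2K6, MAPK14 and DUSP10, while MAP2K3, MAP2K4 and MAPK13 separate the circles from the triangles.

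Among the activators, MAP2K6, a dedicated activator of p38, had 4.94, 4.97 and 5.39 CPM in IRF4-overexpressing replicates 1, 2 and 3, against 8.76, 8.30 and 8.10 CPM in control replicates 1, 2 and 3. All IRF4-overexpressing libraries lay below all control libraries, and within each group the values lay close together. The means were 5.10 ± 0.249 CPM in IRF4-overexpressing and 8.39 ± 0.342 CPM in control libraries (SD, n = 3 each), a log2 fold change of -0.72 (SE 0.11), or 0.609 of the control level. The difference was as large on each side of the library axis, with a log2 ratio of -0.76 between IRF4-overexpressing replicates 2 and 3 and control replicate 1, and of -0.73 between IRF4-overexpressing replicate 1 and control replicates 2 and 3. Among all called falls it ranked as number 10 of 22 by size. The call was lost in the fits that left out IRF4-overexpressing replicate 2 or 3 or any of the 3 control libraries, with log2 fold changes of -0.75 to -0.69 over the 6 fits without a library.

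MAP2K3, the closest relative of MAP2K6 and likewise an activator of p38, behaved differently across libraries. It had 33.3, 10.1 and 10.2 CPM in IRF4-overexpressing replicates 1, 2 and 3, against 21.8, 29.9 and 34.3 CPM in control replicates 1, 2 and 3. IRF4-overexpressing replicate 1 lay among the controls, and replicates 2 and 3 lay below every control. The log2 fold change was -0.69 with an SE of 0.48, so a mean difference nearly as large as that of MAP2K6 came with a spread several times wider and did not pass. Within the side that holds control replicate 1 the log2 ratio was -1.10, and within the other side it was 0.053. Without IRF4-overexpressing replicate 1, when both libraries left in that group share a side with control replicate 1, the log2 fold change was -1.51 and passed. That fit called 2436 genes higher and 3071 lower.

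MAP2K4, which phosphorylates the JNK kinases as well as p38, had 61.7, 79.5 and 76.9 CPM in IRF4-overexpressing replicates 1, 2 and 3, against 75.9, 68.5 and 70.1 CPM in control replicates 1, 2 and 3. The groups overlapped and the log2 fold change was 0.024 (SE 0.12), with either sign among the alternatives tried. The libraries on the side of control replicate 1 all lay above those on the other side, whatever their group. The log2 ratio was 0.042 within the side with control replicate 1 and -0.17 within the other.

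Per kilobase of gene width the activators differed widely in level. MAP2K4 was at 18.9 ± 2.51 RPKM in IRF4-overexpressing and 18.6 ± 1.02 RPKM in control libraries, MAP2K3 at 6.88 ± 5.15 RPKM in IRF4-overexpressing and 11.05 ± 2.44 RPKM in control libraries, and MAP2K6 at 1.16 ± 0.0566 RPKM in IRF4-overexpressing and 1.90 ± 0.0777 RPKM in control libraries (SD, n = 3 each). MAP2K6 thus made up 3.73% to 4.85% of the summed activator RPKM in IRF4-overexpressing libraries, against 5.51% to 6.59% in control libraries. These shares do not depend on how the libraries were scaled. They do depend on the gene width, deposited as 4410 bases for MAP2K6 against 13400 bases in its annotated transcript.

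Of the kinases, MAPK14 (p38 alpha), the widely expressed form, had 84.1, 76.9 and 79.2 CPM in IRF4-overexpressing replicates 1, 2 and 3, against 96.7, 90.0 and 94.3 CPM in control replicates 1, 2 and 3. Every IRF4-overexpressing library lay below every control library. The log2 fold change of -0.23 (SE 0.086), or 0.854 of the control level, did not pass edgeR's test over all genes. It was -0.31 within the side with control replicate 1 and -0.13 within the other, with the sign fixed by the lack of overlap. Without IRF4-overexpressing replicate 1 it was -0.27 and passed, in a fit that called 2436 genes higher and 3071 lower. With library sizes alone in place of TMM the log2 fold change of MAPK14 was -0.13.

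MAPK13 (p38 delta) was near the detection limit, with 19, 10 and 10 counts in IRF4-overexpressing replicates 1, 2 and 3 and 15, 16 and 20 counts in control replicates 1, 2 and 3. That is 0.552, 0.270 and 0.207 CPM in the IRF4-overexpressing libraries, against 0.373, 0.595 and 0.547 CPM in the control libraries. The 3 libraries on the side of control replicate 1 were the lowest, whatever their group, and the log2 ratio was -0.65 within that side and -0.048 within the other. Its log2 fold change was -0.58 (SE 0.42), and it ran from -1.08 to -0.28 without single libraries. MAPK11 (p38 beta) had 2 counts in IRF4-overexpressing replicate 3, 2 in control replicate 3 and none in the other 4 libraries. It was too low for the test and for a fold change.

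Set beside MAPK12 (p38 gamma), these values show that p38 RNA in these cells came almost wholly from a pair of genes, MAPK14 and MAPK12. RNA counts do not give the amounts of the kinase proteins. MAPK12 had 69.8, 79.7 and 75.7 CPM in IRF4-overexpressing replicates 1, 2 and 3, against 69.3, 74.3 and 67.7 CPM in control replicates 1, 2 and 3, which is 0.092 on the log2 scale (SE 0.093; adjusted p = 0.55 in edgeR). Per length MAPK14 was at 12.3 ± 0.561 RPKM in IRF4-overexpressing and 14.3 ± 0.52 RPKM in control libraries, and MAPK12 at 11.3 ± 0.755 RPKM in IRF4-overexpressing and 10.6 ± 0.52 RPKM in control libraries (SD, n = 3 each). MAPK13 stayed at or under 0.0938 RPKM in every library. MAPK14 therefore held 54.8%, 49.3% and 51.4% of the summed p38 RPKM in IRF4-overexpressing replicates 1, 2 and 3, against 58.4%, 54.9% and 58.3% in control replicates 1, 2 and 3. MAPK12 held 44.9% to 50.5% in IRF4-overexpressing and 41.3% to 44.7% in control libraries. The groups did not overlap in either share, but IRF4-overexpressing replicate 1 and control replicate 2 nearly met. The shares rest on the deposited gene widths, 6530 bases for MAPK14 and 6615 for MAPK12. The annotated transcripts searched above were 3779 and 1918 bases long. Shares by those lengths were not computed, so which of the pair is the larger is not settled here. The summed level was 23.7 ± 0.184 RPKM in IRF4-overexpressing and 25.1 ± 0.284 RPKM in control libraries (SD, n = 3 each). With library sizes alone in place of TMM the log2 fold change was -0.13 for MAPK14 and 0.19 for MAPK12. The small gap in the sum thus depends on the scaling, and it was not tested.

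**Figure D2:**
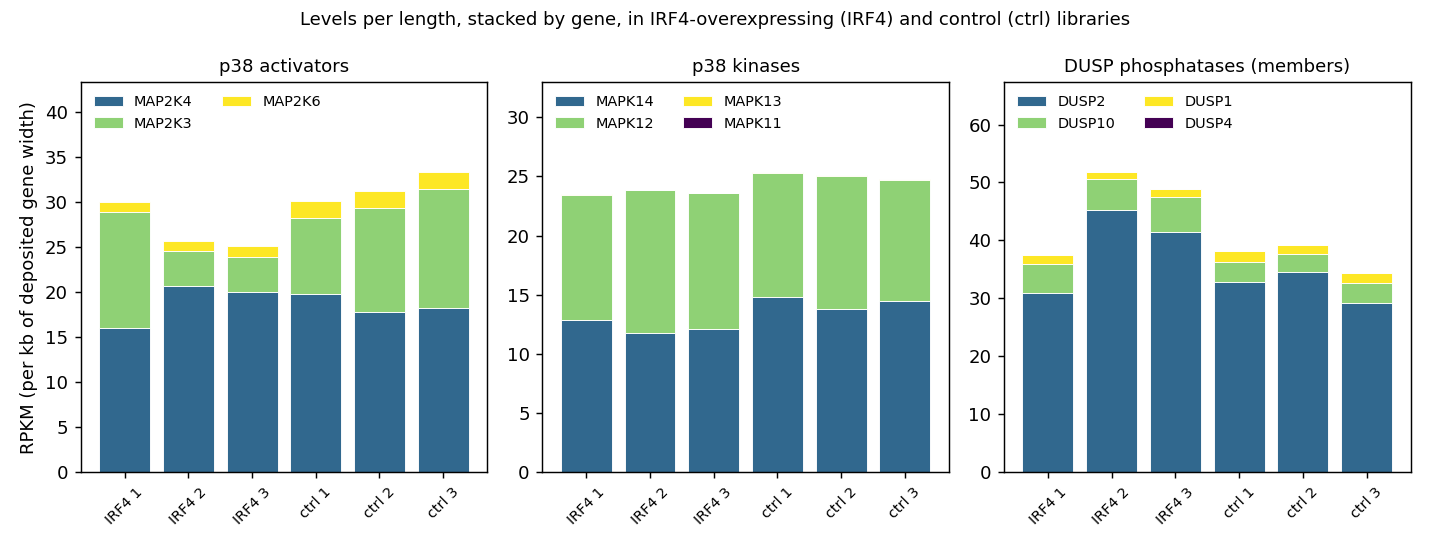
Levels per kilobase of gene width (RPKM, linear axis from 0) of the activators, the p38 kinases and the member phosphatases, stacked by gene, in IRF4-overexpressing replicates 1 to 3 and then control replicates 1 to 3. MAPK14 and MAPK12 fill nearly the whole p38 bar in every library, MAP2K6 is the thin top segment of the activators, and DUSP2 is the bulk of the phosphatases.

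Among the phosphatases DUSP10, which acts on p38 and JNK in preference to ERK, had 16.4, 17.8 and 19.95 CPM in IRF4-overexpressing replicates 1, 2 and 3, against 11.2, 10.6 and 11.3 CPM in control replicates 1, 2 and 3. Every IRF4-overexpressing library was above every control. The means were 18.1 ± 1.78 CPM in IRF4-overexpressing and 11.04 ± 0.414 CPM in control libraries (SD, n = 3 each), 1.64-fold, with a log2 fold change of 0.71 (SE 0.11). Within the side with control replicate 1 the log2 ratio was 0.75, and within the other side it was 0.59. The lack of overlap between the groups fixed the sign of both ratios, so they are no further result. As for MAP2K6, the call was lost without IRF4-overexpressing replicate 2 or 3 or any control library, with log2 fold changes of 0.64 to 0.76 over the 6 fits. Among the 360 called rises it ranked number 311 by size.

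DUSP10 and MAP2K6 act on p38 in opposite ways, and their ratio is free of library scaling. It sets the member called higher over the member called lower in this same comparison, so its separation follows from that choice and is no further result. DUSP10 had 3.32, 3.58 and 3.70 times the CPM of MAP2K6 in IRF4-overexpressing replicates 1, 2 and 3, against 1.28, 1.27 and 1.40 times in control replicates 1, 2 and 3. All 3 IRF4-overexpressing libraries lay above all 3 control libraries.

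DUSP2, a nuclear phosphatase of activated lymphocytes, was the most abundant member by RPKM. It had 52.1, 76.2 and 69.8 CPM in IRF4-overexpressing replicates 1, 2 and 3, against 55.3, 58.2 and 49.3 CPM in control replicates 1, 2 and 3. IRF4-overexpressing replicate 1 lay within the control range and the other IRF4-overexpressing libraries lay above it. Its log2 fold change of 0.28 (SE 0.16) did not pass. The log2 ratio was 0.40 within the side with control replicate 1 and -0.045 within the other. Without IRF4-overexpressing replicate 1 the log2 fold change was 0.42 and passed, in a fit that called 2436 genes higher and 3071 lower.

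DUSP1, the immediate early phosphatase that limits p38 and JNK signals, had 3.72, 2.54 and 3.38 CPM in IRF4-overexpressing replicates 1, 2 and 3, against 4.36, 3.27 and 4.08 CPM in control replicates 1, 2 and 3. The groups overlapped, and the log2 fold change of -0.29 (SE 0.19) did not pass. Within the side with control replicate 1 the log2 ratio was -0.56, and within the other it was 0.018. DUSP4 had no count in any library. With 3 counts over a group as the limit that a count of 0 allows, that puts DUSP4 at or under 0.0251 CPM in IRF4-overexpressing and 0.029 CPM in control libraries, counting error only.

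By RPKM, and so by the deposited gene widths, the 10 genes fell in nearly the same order in both groups. In IRF4-overexpressing libraries it ran DUSP2 (39.2 ± 7.42), MAP2K4, MAPK14, MAP2K3, DUSP10 (5.48 ± 0.54), DUSP1 (1.40 ± 0.264), MAP2K6, MAPK13 and MAPK11, with DUSP4 at 0 (SD, n = 3). In control libraries DUSP2 (32.2 ± 2.69) again led and DUSP10 was at 3.35 ± 0.126, while MAP2K6 stood just above DUSP1 (1.69 ± 0.244; SD, n = 3). DUSP1 and MAP2K6 overlapped in either group, and so did MAP2K3 with both MAPK14 and DUSP10 in the IRF4-overexpressing libraries. The ranges of the other neighbours down to MAPK13 did not overlap, though some lay closer together than the width of a range, as MAP2K3 and MAPK14 did in the control libraries.

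**Figure D3:**
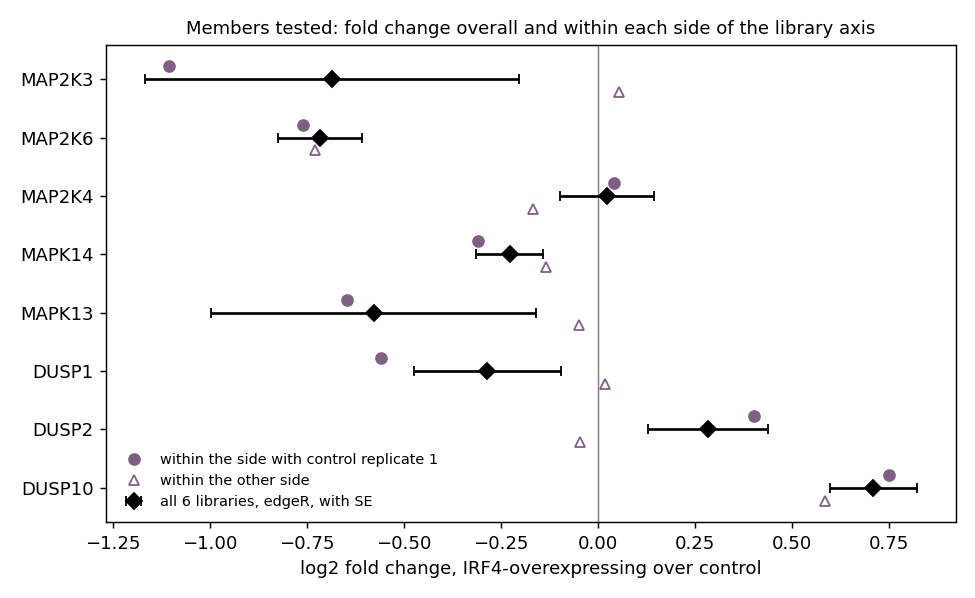
Log2 fold change (IRF4-overexpressing over control) of the 8 members tested, from the edgeR fit over all 6 libraries with its SE (diamonds), and the log2 ratio of mean CPM within the side of the library axis that holds control replicate 1 (circles) and within the other side (open triangles). MAP2K6 and DUSP10 lie well away from 0 in all 3, while MAP2K3, MAPK13, DUSP1 and DUSP2 lie near 0 within the side that holds IRF4-overexpressing replicate 1. For MAP2K6, MAPK14 and DUSP10 the groups do not overlap, which fixes the sign within each side.

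The promoters of the pair that passed were read from RefSeq (GRCh38.p14), as 250 bases before and 50 after an annotated start, and searched on both strands. The motifs were GAAANNGAA, a pair of IRF half-sites as in the interferon-stimulated response element, GGAANNGAA, the composite site of ETS factors with IRF4, TGANTCA, the AP-1 site, and TGACGTCA, the cyclic AMP response element. MAP2K6 and DUSP10 each have a pair of annotated starts. Of these 4 windows 1 held a match, GAAANNGAA on the reverse strand at base 3 after the downstream start of MAP2K6, a letter string that 8.11% of all 35116 promoters hold. The windows of that start and of the upstream DUSP10 start are shown, with matched bases in capitals, and the DUSP10 window has none.
MAP2K6, chr17:69502012-69502311, plus strand: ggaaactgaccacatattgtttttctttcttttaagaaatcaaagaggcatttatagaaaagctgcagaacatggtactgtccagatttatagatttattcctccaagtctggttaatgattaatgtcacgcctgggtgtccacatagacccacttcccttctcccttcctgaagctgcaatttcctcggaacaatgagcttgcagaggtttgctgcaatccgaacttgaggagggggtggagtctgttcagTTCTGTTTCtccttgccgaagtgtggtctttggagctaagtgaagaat
DUSP10, chr1:221742040-221742339, minus strand: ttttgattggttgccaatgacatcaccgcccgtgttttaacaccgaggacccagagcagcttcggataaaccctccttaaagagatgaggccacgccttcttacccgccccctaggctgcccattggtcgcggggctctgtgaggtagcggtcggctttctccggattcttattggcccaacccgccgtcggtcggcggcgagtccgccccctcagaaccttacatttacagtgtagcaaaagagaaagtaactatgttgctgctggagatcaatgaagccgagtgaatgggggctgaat
Among the other members, the upstream MAP2K3 window held 1 match each to GGAANNGAA and TGANTCA, which 7.79% and 7.71% of promoters hold. DUSP2 had 1 match to GGAANNGAA, and DUSP1 had TGACGTCA, held by 1.85%. A match is a string of letters, not a shown binding site.

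Across 6 lists of 98 genes around the module, which hold no member and were likewise drawn up with earlier results known, 79 were tested, of which 1 was higher and 1 lower by edgeR. Over all genes tested 2.98% were higher and 0.182% lower, so counts this small, and the counts of 0 in single lists given further on, do not set the pathway apart. Without IRF4-overexpressing replicate 1 the counts were 10 higher and 28 lower, beside 2436 higher and 3071 lower over all genes. Their median log2 fold change was -0.11, against 0.0073 for all genes tested. The lower gene was PTPRR, a receptor-type tyrosine phosphatase that docks on ERK and p38 and dephosphorylates them. It had 1.48, 1.43 and 1.12 CPM in IRF4-overexpressing replicates 1, 2 and 3, against 5.28, 5.06 and 5.66 CPM in control replicates 1, 2 and 3. The log2 fold change, -1.99 (SE 0.15; adjusted p = 0.00172 in edgeR), or 0.251 of the control level, was the lowest of all 12079 genes tested. It passed in each of the 6 fits without a library. The other 6 tested phosphatases of that list, PPM1A, PPM1B, PPM1D, PTPN7, PPP2CA and PPP2CB, did not pass. At an unadjusted p under 0.05 in edgeR the list had 0 higher and 1 lower, beside 1368 and 988 over all genes tested. In CPM 4 of its 7 tested genes lay lower with no overlap (11.9% of all genes tested) and 0 higher (13.5%). The list was drawn up with results known, so nothing is read from that share.

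The higher gene was DUSP22, an atypical small phosphatase known to dampen T cell receptor signalling. It had 81.2, 85.1 and 88.4 CPM in IRF4-overexpressing replicates 1, 2 and 3, against 52.3, 54.8 and 52.7 CPM in control replicates 1, 2 and 3 (log2 fold change 0.67, SE 0.083; adjusted p = 0.00911 in edgeR). The groups were far apart against their spread, and the call was lost without control replicate 2 or 3 (log2 fold change 0.69 and 0.66). The other 9 tested genes of the DUSP list did not pass, and 5 of its 15 genes were too low to test. At an unadjusted p under 0.05 in edgeR the list had 2 higher and 2 lower, beside 1368 and 988 over all genes tested. With no overlap in CPM 3 lay higher (13.5% of all genes tested), namely DUSP5, DUSP19 and DUSP22. In the same way 1 lay lower (11.9%), DUSP16, at -0.37 on the log2 scale (SE 0.11).

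Over all 12079 genes tested, 1368 were higher and 988 lower at an unadjusted p under 0.05 in edgeR, as background for the counts below. In the tier above the activators, 0 of 18 tested MAP3K and adaptor genes passed by edgeR, DESeq2 or limma-voom, with 2 higher and 1 lower at an unadjusted p under 0.05 in edgeR. The smallest p-values were those of GADD45B, an activator of MAP3K4, at 0.36 on the log2 scale (SE 0.091; adjusted p = 0.103 in edgeR), and of MAP3K5, the oxidant-responsive kinase ASK1, with 0.31 (SE 0.085; adjusted p = 0.128 in edgeR). Among p38 substrates and effectors 0 of 19 passed in any of the 3 tools, with 0 at an unadjusted p under 0.05 in edgeR and DESeq2 and 1 lower in limma-voom. Here CREB1, a transcription factor phosphorylated downstream of p38, had -0.30 and RPS6KA5, a p38- and ERK-activated nuclear kinase, had -0.27 (SE 0.13 each, edgeR adjusted p = 0.272 and 0.299). CREB1 was at -0.43 within the side with control replicate 1 and at -0.049 within the other, and without IRF4-overexpressing replicate 1 it was at -0.45 and passed (edgeR adjusted p = 0.00206, and 0.00206 to 0.701 over the 6 fits without a library). RPS6KA5 was at -0.16 without IRF4-overexpressing replicate 2.

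Of the other MAP kinases and MAP2Ks, 0 of 13 tested passed by edgeR, with 1 higher and 4 lower at an unadjusted p under 0.05, 0 by limma-voom and 2 lower by DESeq2. The unadjusted edgeR counts over all 12079 genes tested were 1368 higher and 988 lower. MAPK10, the JNK form typical of neurons, had 0.669, 0.513 and 0.601 CPM in IRF4-overexpressing replicates 1, 2 and 3, against 1.54, 0.893 and 1.53 CPM in control replicates 1, 2 and 3. The groups did not overlap, with a difference of -1.17 on the log2 scale (SE 0.27; adjusted p = 0.0781 in edgeR and 0.0273 in DESeq2, and 0.00974 to 0.293 over the edgeR fits without a library, of which the 1 without IRF4-overexpressing replicate 1 passed). MAPK6 (ERK3) stood at -0.32 on that scale (SE 0.086; adjusted p = 0.119 in edgeR and 0.0173 in DESeq2, and 0.0103 to 0.374 over the edgeR fits without a library, of which again the 1 without IRF4-overexpressing replicate 1 passed). MAPK10 and MAPK6 were the 2 genes that DESeq2 called lower. Among 12 tested immediate early genes, with which DUSP1 is commonly induced, 0 passed by edgeR, DESeq2 or limma-voom, with 1 higher and 1 lower at an unadjusted p under 0.05 in edgeR. These were IER3 (log2 fold change 0.90, SE 0.24; adjusted p = 0.114 in edgeR) and NR4A1 (-0.54, SE 0.19; adjusted p = 0.207 in edgeR). Without IRF4-overexpressing replicate 1 both passed in edgeR, as did GADD45B and MAP3K5, with log2 fold changes of 1.049 for IER3, -0.66 for NR4A1, 0.39 for GADD45B and 0.34 for MAP3K5. GADD45B also passed with library sizes alone, at 0.46.

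**Figure D4:**
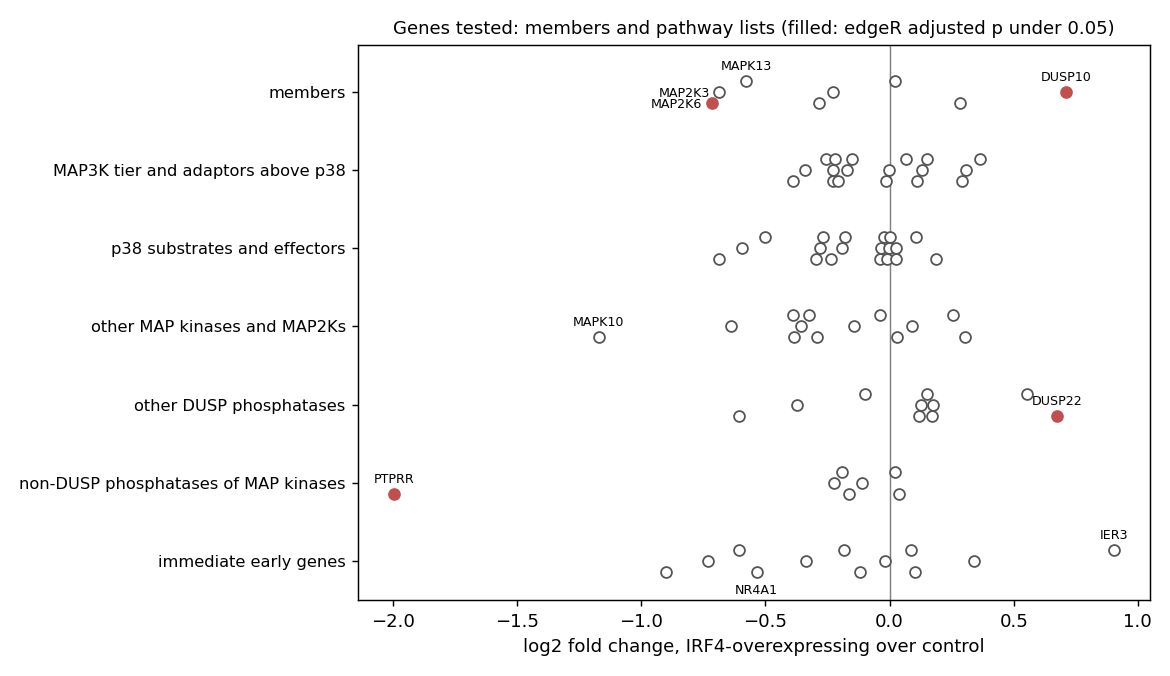
Log2 fold change (IRF4-overexpressing over control) of every tested gene among the members and the 6 pathway lists, 1 point per gene, with genes that passed edgeR's test filled and points offset vertically for legibility. MAP2K6, DUSP10, PTPRR and DUSP22 are the filled points, and PTPRR at -1.99 stands apart from the rest.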

How the data were processed

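Raw read counts per Entrez gene were analysed as deposited, 1 column per library. That they are unscaled counts was read from the values, which are whole numbers with differing totals. Per the submitters' processing notes the builds were mm9 and hg19, and the aligner, counting tool, annotation and strand setting are not given in the sources used here. The control columns, named WT by the authors, were matched to the empty-vector samples by replicate number. A deposited gene width in bases served for RPKM.

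Of 23459 identifiers 23308 matched a RefSeq symbol. Differences between the groups were tested in edgeR 4.0.16 under R 4.3.3: TMM scaling, filterByExpr, a group-only design, and the quasi-likelihood F-test with Benjamini-Hochberg adjustment over 12079 genes, called at an adjusted p under 0.05. SEs are the absolute log2 fold change over the square root of F. The test was first checked on simulated data, with each gene drawn independently. That simulation held no shared library axis, so the check does not cover the axis seen here. Replicates differed by more than sampling noise. Chi-square per gene was 170 and 185 for IRF4-overexpressing replicate 1 against replicates 2 and 3 of its group. It was 34.5 and 53.5 for control replicate 1 against control replicates 2 and 3. Between replicates 2 and 3 it was 7.59 in IRF4-overexpressing and 6.48 in control libraries. DESeq2 1.42.0, limma 3.58.1 and other settings were alternatives. Over all genes the log2 fold change had a median that was 0.0073 with TMM and 0.10 with library sizes alone. Figures used matplotlib 3.10.9.

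The members and lists were chosen with earlier results of these data known. Named genes were all members, MAPK12, IRF4, up to 4 called genes per direction of each list, and, for lists with no call, the 2 lowest p-values. The ratios within each side of the library axis were added after seeing the data. No protein sequences were used, and coding sequences stand in for the planned protein stretches.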

Additional observations from a re-analysis of the deposited data

How the results depend on the processing

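Over 15 alternative fits MAP2K6 and DUSP10 kept their direction in all, and they passed in 9 each. They lost the call with the replicate block and in 5 of the 6 fits without a library. The number of members called ran from 0 to 2 higher and 0 to 3 lower over the 6 fits without a library, pathway genes from 0 to 10 higher and 1 to 28 lower, and all genes from 120 to 2436 higher and 3 to 3071 lower. The upper ends came without IRF4-overexpressing replicate 1, when both libraries left in its group share a side of the axis with control replicate 1. In each fit that called 0 members, 1 higher and 1 lower had an unadjusted p under 0.05, beside 926 to 1407 higher and 240 to 558 lower over all genes. With library sizes alone 13 genes were lower overall and 2 pathway genes were higher. DESeq2 called 561 higher and 200 lower overall and 3 pathway genes lower. A term for the library split gave 709 higher and 389 lower, and 3 pathway genes each way. The sides were read from these counts, so its p-values are too small. Same-numbered libraries did not deviate together (correlations of -0.74, -0.29 and -0.62), and 0 of 3 control libraries correlated best with its own number. The library axis held 83.4% of the variance within groups, so these correlations cannot tell whether same-numbered libraries shared an infection or batch. With the replicate block edgeR called 3 genes higher and 0 lower overall (926 and 426 at an unadjusted p under 0.05), and 0 members and 0 pathway genes either way (1 and 1, and 5 and 4, unadjusted), so DUSP22 and PTPRR did not pass either. MAP2K4 was at -0.062 with the split term, and from -0.042 to 0.12 without single libraries, below 0 without IRF4-overexpressing replicate 2 or 3 or control replicate 2. It was at -0.17 within the side with IRF4-overexpressing replicate 1. On that side MAP2K3 (0.053), DUSP1 (0.018), DUSP2 (-0.045) and MAPK12 (-0.025) also had the opposite sign to the full fit. The cause was not tested. TPM in place of RPKM leaves shares within a library unchanged by construction. Genes under the filter, MAPK11 and DUSP4 among them, were not testable at this depth.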
